A study of Mus musculus with 8 samples.

Results

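The 8 genes described here make, break down, export and sense the lipid signal sphingosine-1-phosphate (S1P). They were chosen by name, with the results of this comparison already known, and are the receptors *S1pr1*, *S1pr2* and *S1pr3*, the kinases *Sphk1* and *Sphk2*, the lyase *Sgpl1*, the phosphatase *Sgpp1* and the exporter *Spns2*. They are 8 of the 52325 Ensembl genes listed in each library, and all 8 were among the 17177 genes with at least 0.5 TPM, a level corrected for transcript length and library total, in at least 4 of the 8 libraries. RNA-seq was performed on rib (costal) chondrocytes, the cells that form rib cartilage, which had been released by collagenase digestion from 7-d-old mice. The comparison was between 4 wild-type and 4 *Mir140*-null libraries. The study's methods do not state whether each library came from a single mouse. The null allele was made by CRISPR/Cas9 deletion of the *Mir140* locus in zygotes of mixed C57BL/6 and CBA/ca origin, and was then backcrossed to C57BL/6J. The number of backcross generations is not stated there. Wild-type and null lines were both derived from heterozygous mice, and the deletion was present in every cell of the null animals rather than in cartilage alone.

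S1P is formed inside cells when a sphingosine kinase, encoded by *Sphk1* or *Sphk2*, phosphorylates sphingosine. It is returned to sphingosine by the phosphatase *Sgpp1* or cleaved irreversibly by the lyase *Sgpl1*, and *Spns2* exports it from the cell. Outside the cell it binds G protein-coupled receptors, of which *S1pr1* couples to Gi and activates Rac, *S1pr2* couples strongly to G12/13, and *S1pr3* couples to Gi, Gq and G12/13. The pathway is best known for guiding lymphocytes out of lymphoid organs and for stabilising blood vessels.

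*Mir140* yields miR-140-5p and miR-140-3p, and the 3p strand occurs with alternative 5′ ends. The longer form, miR-140-3p.2, begins at the annotated base, whereas miR-140-3p.1 begins 1 base later, so that their seeds differ. The mature sequence below is that of RefSeq (GRCm38.p6, chr8:107551288-107551308, plus strand), and the shorter form is the same sequence from its second base. Capitals mark the seed, bases 2 to 8.
miR-140-3p.2: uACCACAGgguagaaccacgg
miR-140-3p.1: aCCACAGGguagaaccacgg

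Of the 8 genes, the study's target predictions listed *S1pr2* for miR-140-3p.1 and *S1pr1* for miR-140-5p. These predictions are for human genes and were matched here to mouse genes by symbol, whereas the sequence search used mouse 3′UTRs. For each gene the longest 3′UTR in GENCODE M21 (GRCm38) was searched on the transcribed strand for the words that pair with these seeds. For miR-140-3p.1 these were CTGTGG (6mer), CTGTGGA (7a1), CCTGTGG (7m8) and CCTGTGGA (8mer). For miR-140-3p.2 they were TGTGGT (6mer), TGTGGTA (7a1), CTGTGGT (7m8) and CTGTGGTA (8mer). The words overlap, since CTGTGGT holds the 6mers of both forms.

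The 3′UTR of *S1pr2* spans 5111 bases and held 7 matches to miR-140-3p.1 and none to miR-140-3p.2. One was an 8mer at bases 1129 to 1136 after the stop codon, one was a 7a1 match at bases 950 to 956, and the other five were 6mers. Matches to miR-140-3p.1 lay at 1.37 per kb in *S1pr2*, 1.35 in *Spns2*, 1.04 in *S1pr3* and 0.885 in *Sgpp1*, against 0.604 per kb over the 3′UTRs of the 12988 tested genes that have one. An 8mer was the strongest miR-140-3p.1 match in 5.77% of these 3′UTRs, a 7m8 match in 14.4%, a 7a1 match in 10.1% and a 6mer in 19.8%, and 49.9% held none. These shares take no account of length, and a longer 3′UTR has more room for a match. Both stronger *S1pr2* sites and the 7m8 sites of *Sgpp1* and *Spns2* are shown with the match in capitals, 5′ to 3′ on the minus strand of GRCm38, at chr9:20966326-20966353, chr9:20966505-20966532, chr12:75722336-75722363 and chr11:72451953-72451980 in this order.
S1pr2 8mer: tttgctaaatCCTGTGGAgaaatagaaa
S1pr2 7a1: ccaagactggCTGTGGActtccgatcct
Sgpp1 7m8: acccgcaaccCCTGTGGctagtcttcaa
Spns2 7m8: aacaacagtcCCTGTGGctgtatcccac

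*Sgpp1* and *Spns2* each also held a single miR-140-3p.1 6mer, and neither gene was on the study's prediction lists. *S1pr3* held 3 miR-140-3p.1 6mers and 2 miR-140-3p.2 7a1 matches in 2876 bases. *Sgpl1* held a 7a1 match and a 6mer to miR-140-3p.2, and to the same form *Sphk2* held a single 6mer and *Sgpp1* 3 6mers. No match to either form was found in the 1362 bases of *S1pr1* or the 288 bases of *Sphk1*. A match is a stretch of letters and not a measured binding site.

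**Figure D1:**
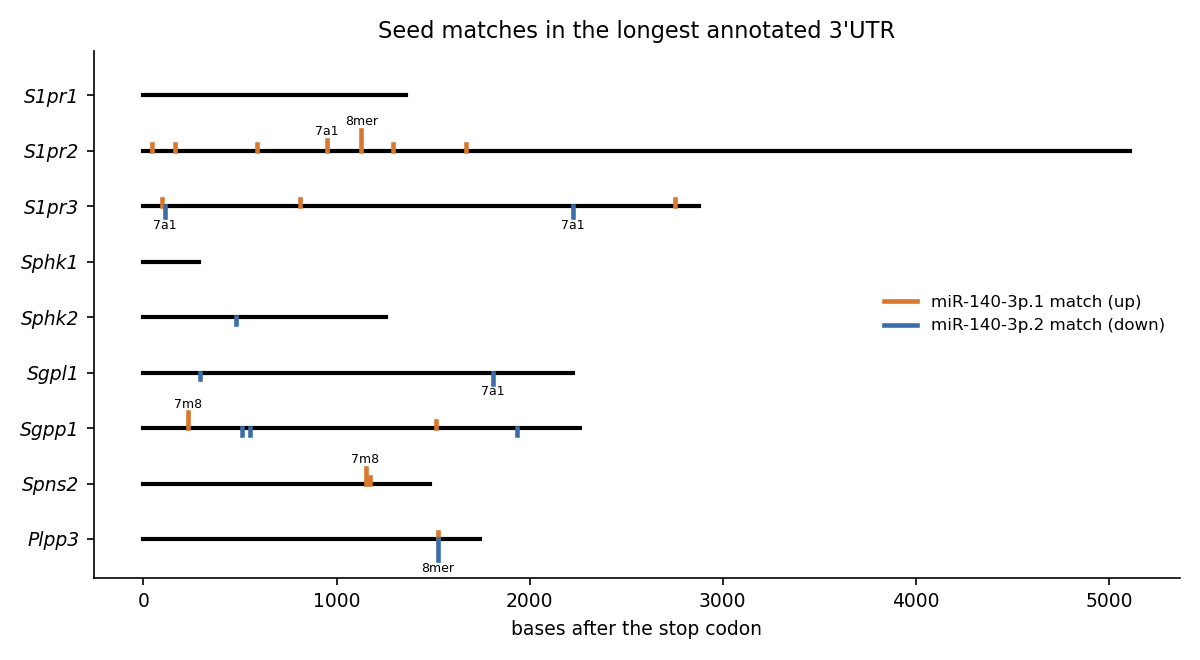
Matches to the seeds of miR-140-3p.1 (orange, upward) and miR-140-3p.2 (blue, downward) along the searched 3′UTRs, with distance from the stop codon in bases on the x axis. Tick height rises with the match class, from 6mer through 7a1 and 7m8 to 8mer, and unlabelled ticks are 6mers. The 7 matches of *S1pr2* all lie in the first 1675 of its 5111 bases. *Plpp3*, a lipid phosphate phosphatase described with the pathway lists, carries an 8mer to miR-140-3p.2.

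Between 17128 and 17950 genes reached 0.5 TPM in the wild-type libraries, and 15800, 16056, 17435 and 16991 did so in *Mir140*-null replicates 1 to 4. The mitochondrial genome supplied 4.06% to 6.99% of TPM in wild-type and 8.41% to 10.1% in null libraries. *Col2a1*, the main cartilage collagen, ranged from 34420 to 61630 TPM over the 8 libraries, and all 10 chondrocyte markers were above the limit for testing, so the labelled cell type was represented. The *Mir140* hairpin was listed at 0 TPM in every library except *Mir140*-null replicate 2, where it reached 8.86 TPM, against that label. A microRNA hairpin is poorly captured by poly(A) RNA-seq, so this row did not check the genotypes. The study itself checked genotype by PCR of ear notches and Sanger sequencing, and measured both miR-140 strands by qRT-PCR in rib chondrocyte RNA. *Wwp2*, the host gene of *Mir140*, did not differ by the test (380.3 ± 55.8 TPM in wild-type and 340.4 ± 56.5 TPM in null, SD, n = 4; log2 fold change -0.16 ± 0.15 SE; limma adjusted p = 0.487). In bulk RNA, fewer cells of a type and less RNA per cell cannot be told apart.

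Among the 8 genes, *S1pr2* had the largest log2 fold change (plot of the 8 genes by library). It lies at chr9:20962361-20976781 on the minus strand (ENSMUSG00000043895). The wild-type libraries held 9.88, 12.5, 12.3 and 10.1 TPM, and the *Mir140*-null libraries 51.5, 40.4, 32.0 and 45.5 TPM. Every null library stood above every wild-type library, and the lowest null value was over 2 times the highest wild-type value. The mean was 11.2 ± 1.41 TPM (SD, n = 4) in wild-type and 42.3 ± 8.28 TPM (SD, n = 4) in null, a ratio of 3.77. The log2 fold change on the log2(TPM + 1) scale, null over wild-type, was 1.81 ± 0.16 (SE), the 118th highest of the 17177 genes tested. The mean level of *S1pr2* exceeded that of 63.5% of tested genes in wild-type and 85.3% in null. The genotypes also differed without overlap in the mitochondrial share given above, whose part in these values was not tested. Without null replicates 1 and 2, the libraries in which the fewest genes were detected, the log2 fold change of *S1pr2* was 1.69.

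*S1pr1*, the Gi-coupled receptor, lies at chr3:115710433-115715072 on the minus strand (ENSMUSG00000045092). It was at 5.58, 4.37, 6.05 and 4.51 TPM in wild-type replicates 1 to 4 and reached 7.73, 6.30, 10.1 and 8.67 TPM in the null libraries. The genotypes did not overlap, although the highest wild-type and lowest null libraries were close. The ratio of the means was 1.60 and the log2 fold change 0.58 ± 0.17 (SE).

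*S1pr3*, which couples to several G proteins, lies at chr13:51408639-51422797 on the plus strand (ENSMUSG00000067586). It stood the other way, with 7.29, 12.2, 6.89 and 10.4 TPM in wild-type libraries and 5.75, 3.73, 5.43 and 6.10 TPM in null libraries. Again no library of one genotype fell within the range of the other, with wild-type replicate 3 nearest to the null values. The ratio of the means was 0.572 and the log2 fold change -0.69 ± 0.21 (SE).

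**Figure D2:**
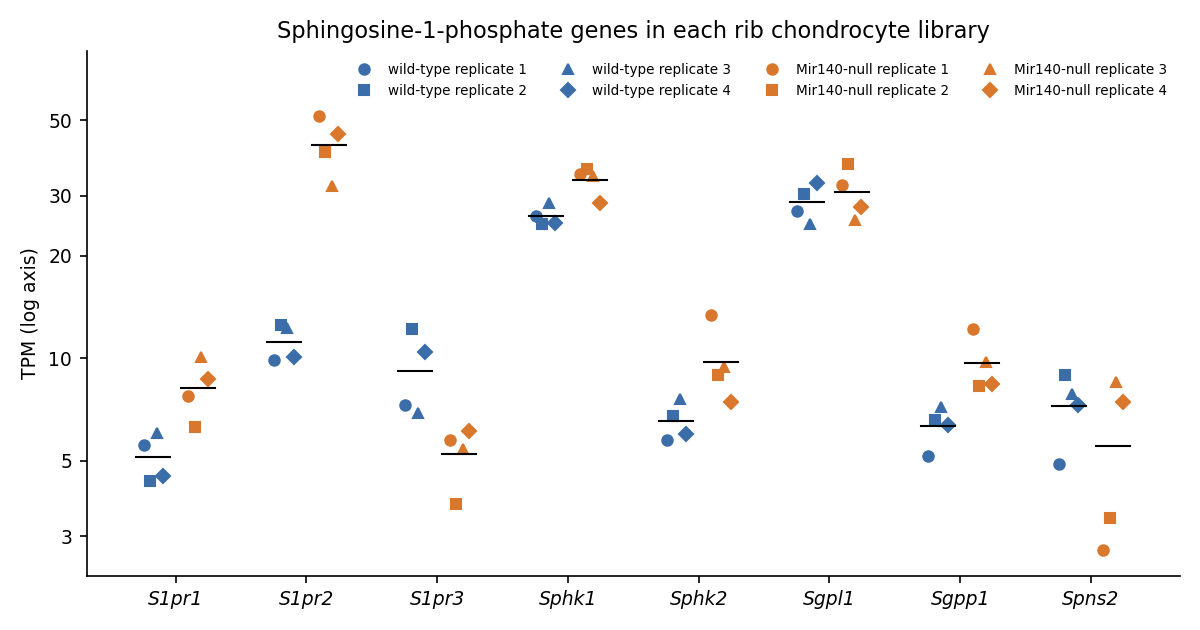
TPM (log axis) of the 8 genes in each library, wild-type in blue and *Mir140*-null in orange, with a marker shape for each replicate number and a black line at the mean of the 4 libraries. *S1pr2* in the null libraries (32.0 to 51.5 TPM) reaches the level of *Sphk1* and *Sgpl1*, whereas *S1pr3* lies lower in null than in wild-type libraries.

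The receptors were next compared within each library, by the share of each in the summed TPM of *S1pr1* to *S1pr5*. That sum was 22.9 to 29.2 TPM in wild-type and 47.5 to 65.1 TPM in null libraries. *S1pr2* made up 40.4% to 48.7% of it in wild-type and 67.3% to 79.9% in null libraries. The share of *S1pr3* was 27.2% to 41.7% in wild-type and 7.38% to 11.4% in null libraries. The share of *S1pr1* overlapped between the genotypes, at 15.0% to 24.3% and 11.9% to 21.2%. In wild-type libraries *S1pr2* was 0.977 to 1.79 times *S1pr3*, and in null libraries 5.89 to 10.8 times. These shares restate the levels above and carry no test. *S1pr4* and *S1pr5*, the receptors typical of blood and nervous cells, stayed below the 0.5 TPM limit in all libraries, with a highest value of 0.143 TPM for *S1pr5*.

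**Figure D3:**
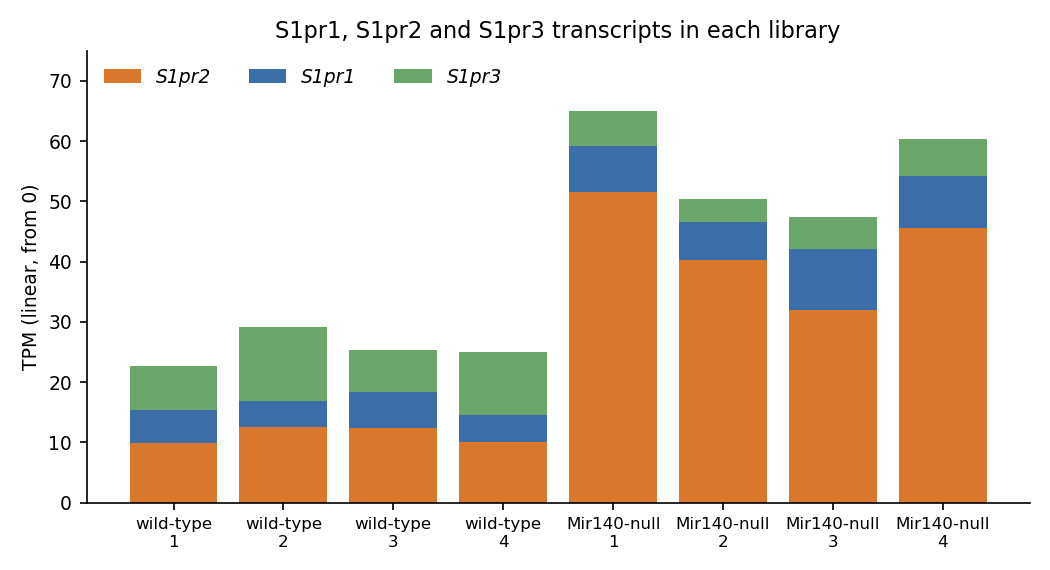
Stacked TPM of *S1pr2*, *S1pr1* and *S1pr3* in each library (linear axis from 0, 1 bar per library). *S1pr2* is 40.4% to 48.7% of the receptor sum in the 4 wild-type bars and 67.3% to 79.9% in the 4 *Mir140*-null bars.

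The kinases differed less. *Sphk1* (chr11:116530925-116536674, plus strand) is the largely cytoplasmic sphingosine kinase, and was at 26.2, 24.8, 28.6 and 25.0 TPM in wild-type and 34.7, 35.9, 34.2 and 28.5 TPM in null libraries. The groups met only at null replicate 4, which was level with wild-type replicate 3, and the log2 fold change was 0.34 ± 0.11 (SE). With quantile normalization it was 0.18. *Sphk2* (chr7:45709467-45718002, minus strand), the kinase found also in the nucleus, was at 5.76, 6.78, 7.62 and 5.99 TPM in wild-type and 13.4, 8.92, 9.40 and 7.42 TPM in null libraries. Its groups overlapped through null replicate 4 and wild-type replicate 3, and the log2 fold change was 0.49 ± 0.18 (SE). *Sphk1* was 3.66 to 4.55 times *Sphk2* in wild-type and 2.60 to 4.02 times in null libraries, so the ratio of the kinases overlapped between genotypes.

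Of the enzymes that remove S1P, the lyase *Sgpl1* (chr10:61098642-61147703, minus strand) overlapped between genotypes, with only null replicate 2 above the wild-type range. It was at 27.0, 30.4, 24.8 and 32.7 TPM in wild-type and 32.3, 37.3, 25.4 and 27.9 TPM in null libraries, a log2 fold change of 0.09 ± 0.15 (SE). The phosphatase *Sgpp1* (chr12:75714249-75735729, minus strand) was at 5.16, 6.60, 7.18 and 6.35 TPM in wild-type and 12.2, 8.28, 9.74 and 8.41 TPM in null libraries. All 4 null libraries were above all 4 wild-type libraries, and the log2 fold change of *Sgpp1* was 0.53 ± 0.16 (SE). The exporter *Spns2* (chr11:72451638-72489904, minus strand) was at 4.90, 8.91, 7.84 and 7.29 TPM in wild-type and 2.74, 3.40, 8.52 and 7.46 TPM in null libraries. Only null replicates 1 and 2 lay below the wild-type range, and the log2 fold change of *Spns2* was -0.42 ± 0.33 (SE). Without these replicates it was 0.15.

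In wild-type libraries the order of the medians was *Sgpl1* (28.7 TPM) and *Sphk1* (25.6 TPM), which overlapped, and then *S1pr2* (11.2 TPM), clear of both. *S1pr3*, *Spns2*, *Sgpp1*, *Sphk2* and *S1pr1* followed from 8.83 to 5.04 TPM, each overlapping its neighbours. In null libraries *S1pr2* came first (median 43.0 TPM), overlapping *Sphk1* (34.5 TPM), which in turn overlapped *Sgpl1* (30.1 TPM). *Sphk2*, *Sgpp1* and *S1pr1* formed a second set with medians of 9.16 to 8.20 TPM, and *S1pr3* and *Spns2* were lowest at 5.59 and 5.43 TPM. Of the neighbours in the null order, *Sgpl1* and *Sphk2* were apart, as were *S1pr1* and *S1pr3*.

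By limma with Benjamini-Hochberg adjustment over all 17177 genes, 1 of the 8 genes, *S1pr2*, was past the threshold (adjusted p under 0.05), where 16.9% of all tested genes were (10.5% higher and 6.4% lower in null). That count depended on the setting, since over 18 alternatives it was 1 in 10 of them, 2 in 6 and 4 in 2. The 4 genes past the threshold were *S1pr1*, *S1pr2*, *Sphk1* and *Sgpp1*, both with a mean of at least 5 TPM as the filter and with 1 factor of unwanted variation from residuals. *S1pr2* was past it in all 18 and *S1pr1* in 7, and without null replicate 4 the 2 genes past it were *S1pr2* and *Sphk1*. The genotypes did not overlap for 4 of the 8, *S1pr1*, *S1pr2* and *Sgpp1* higher and *S1pr3* lower, where 25.9% of all tested genes did not overlap (15.7% higher and 10.2% lower in null). The median log2 fold change of the 8 was 0.42, and that of all tested genes -0.01. The genes were proposed with these values in view, so the counts describe them and support nothing further. *Sphk2* overlaps *Dbp* and *Rpl18* on the opposite strand, *Spns2* overlaps *Mybbp1a*, and *S1pr3* and *Sphk1* overlap non-coding genes on the opposite strand. The library kit kept strand, but whether reads were assigned by strand is not given in the sources used here. *Sgpl1* overlaps the microRNA gene *Gm44308* on its own strand, and *S1pr1*, *S1pr2* and *Sgpp1* overlap no annotated gene.

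Vascular endothelial cells are rich in *S1pr1* and *Spns2*, and the genes were therefore set beside markers of the other cell types a rib digest can hold. The sum of 10 endothelial markers was 23.1, 34.8, 52.0 and 37.1 TPM in wild-type and 21.7, 20.8, 73.2 and 41.9 TPM in null libraries. None of the 10 was at 0 in all libraries, 9 were tested, and 0 were called by limma (0 also at an unadjusted p under 0.05). The libraries with the lowest endothelial sums, wild-type replicate 1 and null replicates 1 and 2, were those with the lowest *Spns2*. *S1pr1* was highest in null replicate 3, where the endothelial sum was highest, and *S1pr2* was lowest of the null libraries there. In null replicates 1 and 2, where the endothelial sums were lowest, *S1pr1* was at 7.73 and 6.30 TPM, above every wild-type library. The part of endothelial cells in any of these values was not tested.

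**Figure D4:**
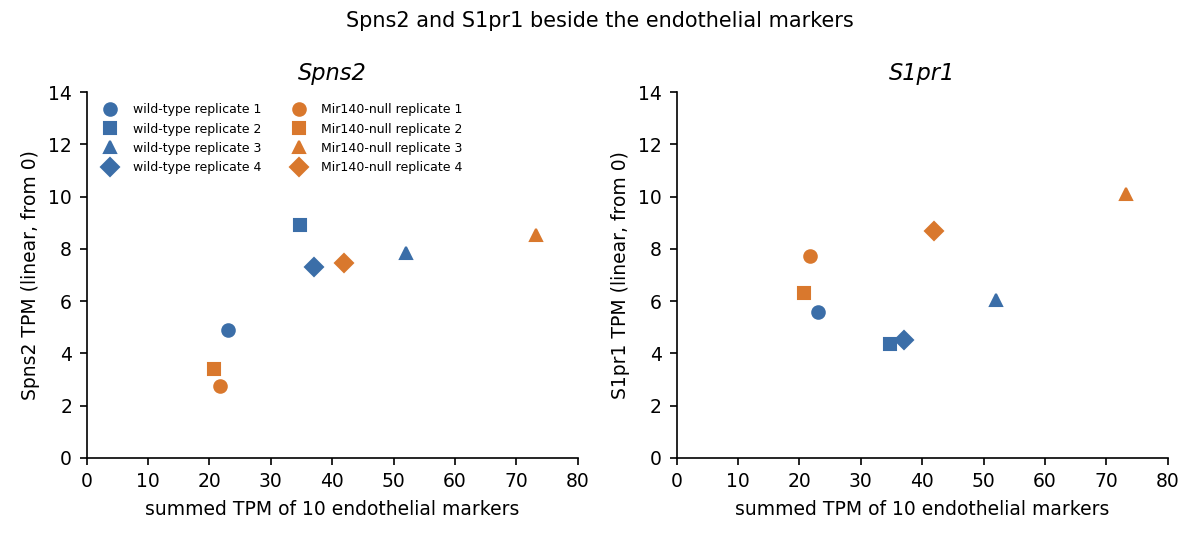
TPM of *Spns2* (left) and *S1pr1* (right) against the summed TPM of 10 endothelial markers, 1 point per library, wild-type in blue and *Mir140*-null in orange (linear axes). *Spns2* is lowest in the 3 libraries with an endothelial sum under 25 TPM, and *S1pr1* is highest, at 10.1 TPM, in the library with the highest sum. *S1pr1* also lies above every wild-type library in *Mir140*-null replicates 1 and 2, which have the lowest sums.

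Smooth muscle and pericyte markers summed to 151 to 244 TPM in wild-type and 186 to 241 TPM in null libraries, and none of the 10 was at 0 throughout. The contractile genes *Acta2* (log2 fold change -1.92 ± 0.38 SE, adjusted p = 0.0166), *Cnn1* (-2.09 ± 0.31, adjusted p = 0.00839) and *Tagln* (-1.52 ± 0.43, adjusted p = 0.0473) fell in null libraries by limma, *Cspg4* rose from 56.9 ± 17.9 to 159.2 ± 27.0 TPM (SD, n = 4; adjusted p = 0.00839), and the remaining 6 of the 10 were not called. These included the contractile genes *Myh11* (-0.31 ± 0.33, adjusted p = 0.542) and *Des* (-0.69 ± 0.24, adjusted p = 0.0867). The part of these cells in the *S1pr3* values was not tested. Blood markers summed to 22.9 to 42.1 TPM in wild-type and 18.4 to 34.0 TPM in null libraries, and 6 of the 10 were too low to test. *Lyz2*, of myeloid cells, was called lower in null (1.17 ± 0.278 and 0.311 ± 0.262 TPM, SD, n = 4). Chondrocyte markers summed to 57293 to 72090 TPM in wild-type and 42785 to 58218 TPM in null libraries. *Acan* rose and *Col9a1* and *Hapln1* fell, and the remaining 7 were not called.

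The rest of the pathway was described by 5 lists with 70 further genes, of which 60 were tested. In null libraries 12 rose and 5 fell by limma, 28.3% of those tested against 16.9% of all genes, with a median log2 fold change of 0.13. Without null replicates 1 and 2, limma called 5 of them higher (*Gna13*, *Rac1*, *Rhoc*, *Sptlc2* and *Plpp3*) and 0 lower. The lists were written with earlier results of these data known, so these counts describe the genes and support nothing further.

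Among receptor signalling genes, which carry the signal inward, 6 of 19 rose and 1 fell, with a median log2 fold change of 0.21. *Gna13* encodes the Gα13 subunit, one of the G proteins to which *S1pr2* couples. It was at 22.3, 27.8, 25.3 and 27.4 TPM in wild-type and 46.5, 51.7, 42.2 and 46.9 TPM in null libraries, a log2 fold change of 0.84 ± 0.11 (SE, limma adjusted p = 0.00619). No library of one genotype reached the other. *Rac1*, the GTPase downstream of Gi, rose by a log2 fold change of 0.57 ± 0.09 (SE, limma adjusted p = 0.0101), from 183.3 to 215.5 TPM in wild-type libraries to 281.8 to 325.4 TPM in null libraries. *Grk2*, a kinase that desensitises G protein-coupled receptors, rose from 74.7 ± 5.90 to 107.5 ± 1.21 TPM (SD, n = 4; limma adjusted p = 0.0106). *Rhob*, a small GTPase also known as an immediate-early gene, was the most abundant of the list and the gene that fell. It was at 848.7, 451.0, 612.2 and 541.4 TPM in wild-type and 170.4, 177.6, 212.6 and 257.9 TPM in null libraries (log2 fold change -1.56 ± 0.21 SE, limma adjusted p = 0.00663). The other 3 that rose were *Rhoc* (log2 fold change 0.68 ± 0.12 SE, limma adjusted p = 0.0121), *Rock2* and *Gnai3*. *Rhoc* was on the study's miR-140-3p.1 list, but unlike *S1pr2* its searched mouse 3′UTR, of 416 bases, held no match to either 3p form. The call of *Gnai3* was lost without any one of 7 libraries, all except wild-type replicate 2, and that of *Rock2* without any one of wild-type replicates 1, 3 and 4 and null replicates 1 and 2 (adjusted p up to 0.0748 and 0.0752).

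Among other lysophospholipid receptors, 4 of 8 were tested, 1 rose and 1 fell, and the median log2 fold change was -0.03. *Lpar1*, a receptor for lysophosphatidic acid, was at 30.4, 50.6, 48.6 and 49.1 TPM in wild-type libraries and ranged from 77.9 TPM in null replicate 3 to 129.0 TPM in null replicate 1. It was higher in all 4 null libraries than in any wild-type library (log2 fold change 1.20 ± 0.21 SE, limma adjusted p = 0.0117). *Lpar2*, a related receptor on the study's miR-140-3p.1 list, fell from 1.80 ± 0.238 to 0.834 ± 0.129 TPM (SD, n = 4; limma adjusted p = 0.0139). In its searched mouse 3′UTR, of 4498 bases, the strongest match to each 3p form was a 7m8. Null libraries held 0.703 to 0.988 TPM of *Lpar2*, near the 0.5 TPM limit. Its call was lost with no filter on low values, with a replicate block and without null replicates 1 and 2 together.

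Ceramide synthesis supplies the sphingosine from which S1P is made, and 2 of the 14 tested genes of this list rose and 3 fell, with a median log2 fold change of 0.14. *Sptlc2* encodes a catalytic subunit of serine palmitoyltransferase, the first step of the pathway. It was at 33.1, 38.7, 32.1 and 37.5 TPM in wild-type and 142.3, 110.8, 68.9 and 73.2 TPM in null libraries (log2 fold change 1.40 ± 0.23 SE, limma adjusted p = 0.0103). The null values were high and more spread than the wild-type values, without overlap. *Degs1*, the desaturase of the last step, was the most abundant gene of the list and rose from 60.9 ± 6.03 to 104.2 ± 15.8 TPM (SD, n = 4; limma adjusted p = 0.0113). *Ormdl1* and *Ormdl3*, which restrain serine palmitoyltransferase, and *Cers3*, a ceramide synthase, fell, with limma adjusted p of 0.0471, 0.0244 and 0.0297. *Ormdl1* and *Cers3* were at low levels, with means of 1.88 and 0.870 TPM in wild-type. The call of *Ormdl3* was lost without any one of wild-type replicates 1, 3 and 4 and null replicate 2 (adjusted p up to 0.0729). That of *Cers3* was lost without any one of the 4 wild-type libraries and null replicates 1 and 2 (up to 0.0788). That of *Ormdl1* was lost without any one library except null replicate 3 (up to 0.104).

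Of the genes that release ceramide or convert it, 15 of 16 were tested and limma called 0, with 3 at an unadjusted p under 0.05 and a median log2 fold change of 0.09. The most abundant was *Sgms2*, a sphingomyelin synthase, with 210.5 ± 71.3 TPM in wild-type libraries and 256.2 ± 43.5 TPM in null libraries (SD, n = 4; limma adjusted p = 0.395).

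Of the other genes of S1P breakdown and transport, 3 of the 8 tested rose and none fell, with a median log2 fold change of 0.34. *Plpp3*, a surface phosphatase that removes the phosphate of S1P and of lysophosphatidic acid, showed the largest log2 fold change of the 60 genes. It was at 10.6, 21.6, 18.6 and 19.0 TPM in wild-type and 86.7, 74.4, 52.7 and 57.2 TPM in null libraries (log2 fold change 1.92 ± 0.24 SE, limma adjusted p = 0.00596). Each null library held over 2 times the highest wild-type value. *Plpp3* was on the study's miR-140-3p.2 list, and its 3′UTR held the 8mer shown in capitals (GRCm38 chr4:105232535-105232562, plus strand), the strongest miR-140-3p.2 match in 3.85% of tested 3′UTRs.
Plpp3 8mer: agatatagttCTGTGGTAgccattgttt

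*Plpp1*, a related phosphatase, rose from 16.4 ± 2.71 to 25.2 ± 1.16 TPM (SD, n = 4; limma adjusted p = 0.0203). *Abcc1*, an efflux pump that can carry S1P, rose from 14.5 ± 5.33 to 30.1 ± 3.93 TPM (SD, n = 4; limma adjusted p = 0.0266). The call of *Plpp1* was lost without wild-type replicate 4 or null replicate 2 (adjusted p up to 0.0508). That of *Abcc1* was lost without any one of wild-type replicate 4 and null replicates 1, 2 and 4 (up to 0.0702). *Enpp2*, which makes lysophosphatidic acid, was the most abundant of the list and was not called (38.9 ± 13.2 and 48.8 ± 4.51 TPM, SD, n = 4; limma adjusted p = 0.251), but was called without 1 library, wild-type replicate 2 (adjusted p = 0.0352).

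**Figure D5:**
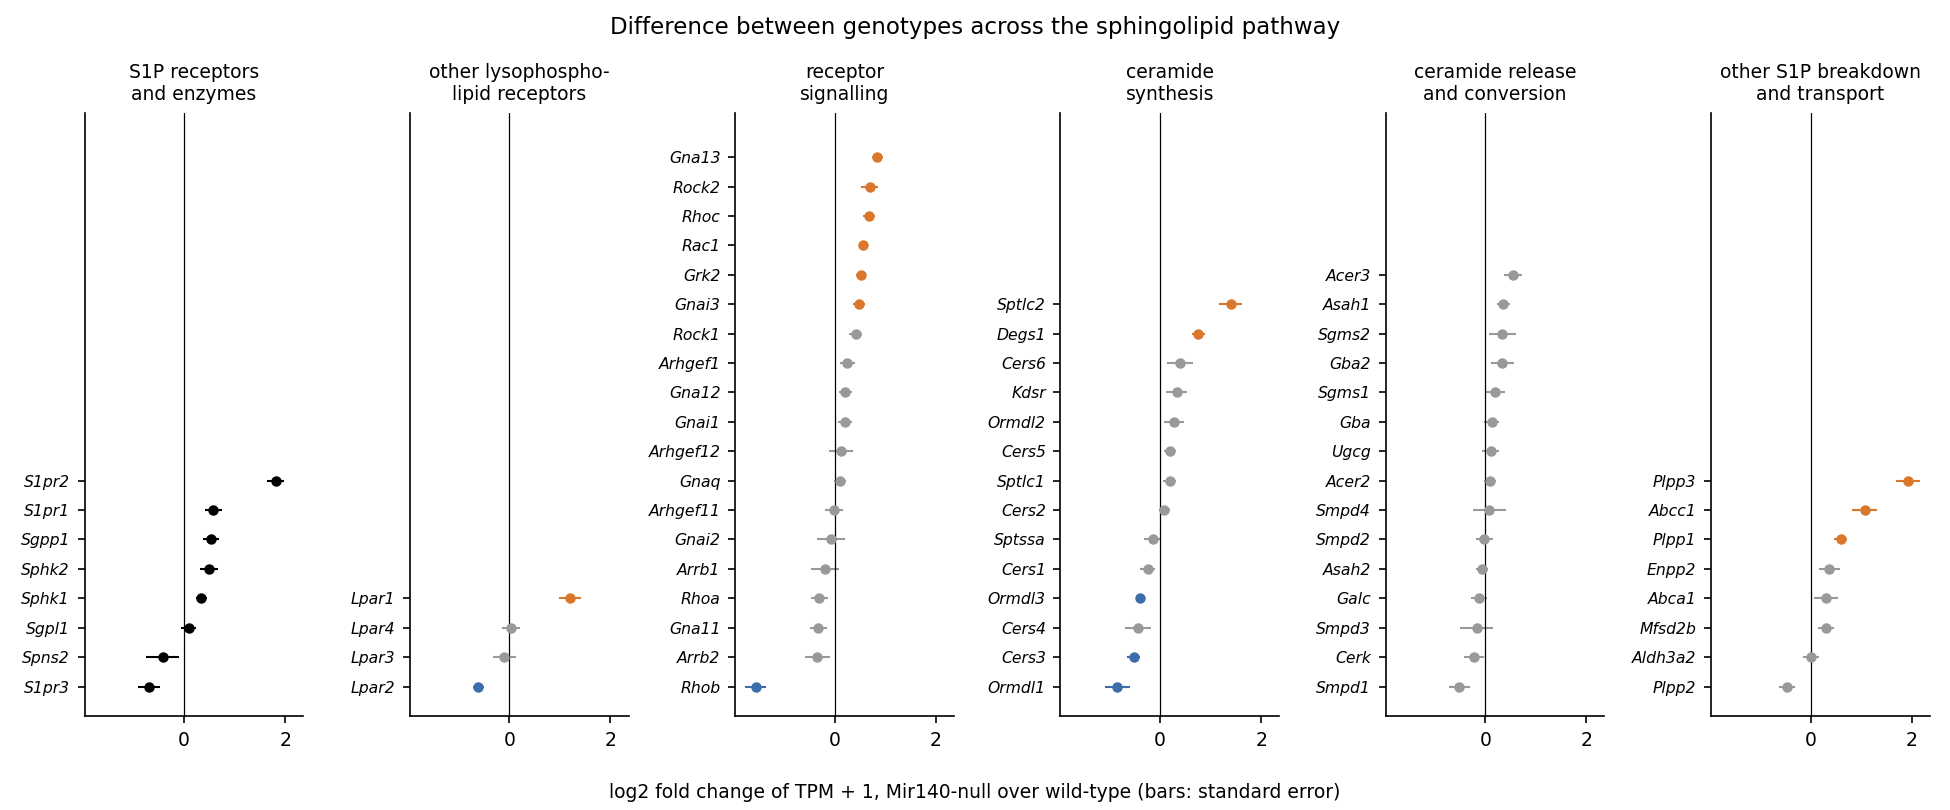
Log2 fold change of TPM + 1 (*Mir140*-null over wild-type, bars are standard errors) for the 8 S1P genes in black and the 60 tested genes of the 5 lists, where orange and blue mark genes called higher and lower by limma and grey those not called. *S1pr2* (1.81) and *Plpp3* (1.92) lie farthest to the right, and *Rhob* (-1.56) farthest to the left.

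The genes whose log2(TPM + 1) followed each receptor most closely over the 8 libraries were sought among 8009 protein-coding genes with a mean of at least 5 TPM. For *S1pr2* these were *B230219D22Rik*, *Actr3*, a subunit of the actin-nucleating Arp2/3 complex, and *Tcn2*, a vitamin B12 carrier, each with a Pearson r of 0.994. *Actr3*, for example, was at 122.1, 146.5, 149.1 and 136.7 TPM in wild-type and 297.9, 263.6, 244.7 and 265.7 TPM in null libraries. For *S1pr1* they were *Chrac1* (r = 0.975), *Cox5b* (r = 0.971) and *Ramp2* (r = 0.970), and for *S1pr3* *Hbegf* (r = 0.972), *Atxn10* (r = 0.963) and *Mapk3* (r = 0.956). The libraries share genotype and library-wide composition, so that these values rank likeness and are no test.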

How the data were processed

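RNA-seq of costal chondrocytes was analysed from 1 TPM file per library, 4 wild-type and 4 *Mir140*-null, grouped by the genotype and replicate number of their titles. The authors deposited TPM per Ensembl gene, quantified by Salmon against the mm10 transcriptome (single-end reads, stranded mRNA kit). Per the labels, FastQC 0.11.7 and DESeq2 were also used; the Salmon version and how transcripts were summed are not given in the sources used here. The labels give only a lower bound on reads per library, and TPM keeps no depth, so precision rests on the 4 libraries per genotype and no counting interval was computed. TPM is also a share of each library, so abundant cartilage genes affect all other values. Identifiers on several lines were counted once (52325 per library), and 99.8% matched GENCODE M21.

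A gene was kept if 4 or more libraries held 0.5 TPM or more (17177 genes). Genotypes were compared by limma 3.58.1 (R 4.3.3) on log2(TPM + 1), with a mean-variance trend, genotype as the only term, two-sided, and Benjamini-Hochberg adjustment over all of them (called at an adjusted p under 0.05). Fold changes on this scale understate those of low genes. For the 8 S1P genes the fold change, its SE and the number past the threshold are given as a description, with no p-value, because the genes and lists were chosen with earlier results of these data known. Named are the 8 genes, in each list the 3 called genes of smallest p in each direction and the most abundant gene, the 3 protein-coding genes most like each receptor, *Mir140* and *Wwp2*. Other list and marker genes were named after their values were seen. Seed matches to miR-140-5p were not searched. Alternatives were another pseudocount, other filters, median-ratio and quantile scaling, a replicate block, 1 factor of unwanted variation, sample weights and leaving out libraries. Python 3.11.15 with pandas 2.3.3, NumPy 2.4.6 and SciPy 1.17.1 was used elsewhere, and figures were drawn with matplotlib 3.10.9.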

Additional observations from a re-analysis of the deposited data

Results flagged for a closer look

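*Lpar1* in wild-type replicate 1 was at 30.4 TPM, far below the other three wild-type libraries (48.6 to 50.6 TPM), and its gap was 0.902 of the whole range, above Dixon's 95% critical value for 4 samples. It was the only one of 50 groups of 4 libraries, over 25 genes, to stand out in this way, where chance gives about 1 in 20. Leaving out each library in turn left *Lpar1* called in all 8 fits (limma adjusted p 0.0135 to 0.0385). The call of *Lpar1* was lost with a replicate block and without null replicates 1 and 2 together.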

How the results depend on the processing

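*S1pr2* was higher in null libraries under all 18 alternatives, with a log2 fold change of 1.69 to 1.94. *S1pr1* (0.48 to 0.77), *S1pr3* (-0.80 to -0.55), *Sphk2* (0.32 to 0.60) and *Sgpp1* (0.43 to 0.60) also kept their direction in all 18. *Sphk1* kept its direction but was 0.18 with quantile normalization. *Sgpl1* lay on either side of 0 (-0.10 to 0.17), and *Spns2* became 0.11 with 1 factor from the least changed genes and 0.15 without null replicates 1 and 2, an alternative chosen after seeing the data. The causes were not tested.

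Counts of calls moved more. Of all genes, 1797 were called higher and 1100 lower. Higher and lower calls were 977 and 539 with no filter, 671 and 454 with a replicate block, 979 and 426 with 1 factor from the least changed genes, and 357 and 210 without null replicates 1 and 2. Lower calls were 605 with a mean of at least 5 TPM and 2016 with 1 factor from residuals. Without 1 library, 779 to 1553 were called higher and 419 to 1214 lower. Of the list genes, 12 were called higher and 5 lower. With a replicate block these were 7 and 1, and without null replicates 1 and 2 they were 5 and 0. Lower list genes numbered 2 with no filter, 2 with a mean of at least 5 TPM, 3 with quantile normalization, 8 with 1 factor from residuals and 3 with 1 factor from the least changed genes. Without 1 library, 8 to 13 list genes were called higher and 2 to 5 lower. The replicate numbers did not pair the libraries (correlations of same-numbered deviations 0.031, 0.016, 0.069 and -0.009; no library was most like its own number), so no pairing was assumed. The exact depth of each library is unknown, and 4 libraries per genotype limit the precision.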
